A study of Mus musculus with 8 samples.

Results

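The genes of prostaglandin synthesis, sensing and breakdown described here are a list of 9 named members: the phospholipase gene Pla2g4a, the cyclooxygenase genes Ptgs1 and Ptgs2, the synthase genes Ptges, Ptges2 and Ptgis, the receptor genes Ptger4 and Ptgfr, and the breakdown gene Hpgd. Members were found by gene symbol, and 8 of the 9 had a row among the 12160 genes of the count table. The expression of Hpgd was not analysed here. RNA was measured in 8 libraries of an immortalized mouse line of pancreatic stellate cells (PSCs), the fibroblast-like cells of the pancreas that become cancer-associated fibroblasts. The PSCs were seeded in growth factor reduced Matrigel domes, kept for 4 days in DMEM with 10% FBS, and then kept for 4 more days in 1 of 3 media. In 3 domes the new medium was conditioned by KPC organoids, mouse pancreatic cancer cells grown in 3D, that carried a lentiviral shRNA against Brca2 (shBrca2-CM). In 3 domes it was conditioned by KPC organoids that carried a non-targeting shRNA (shControl-CM). In 2 domes it was the control medium, which the sample titles name DMEM and the recorded treatment names medium conditioned by the PSCs themselves. This group is called growth medium. By the paper's methods, organoid medium was collected in DMEM with less FBS than the medium of the first 4 days. The part of serum in the differences from growth medium was not tested. The silencing of Brca2 was therefore in the cells that conditioned the medium and not in the PSCs, and all PSCs came from 1 line.

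Prostaglandins are short-lived lipid signals. Phospholipases free arachidonic acid from membranes, the cyclooxygenases turn it into prostaglandin H2, and terminal synthases convert that into prostaglandin E2, prostacyclin and other end products. These leave the cell and act on G protein-coupled receptors of the same or neighbouring cells, and are taken up again and oxidised. In fibroblasts Ptgs2 and Ptges are known as the inducible enzymes of this pathway, raised by inflammatory cytokines, while Ptgs1 and Ptges2 are known as more constant ones.

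Growth medium libraries held 4623846 and 5476988 counts, the shControl-CM libraries 1093609 to 1624392 and the shBrca2-CM libraries 655996 to 1095534, so depth differed with the group, and its part in the differences from growth medium was not tested beyond thinning all libraries to the smallest total. A count of 3, taken as the floor, corresponded to 0.521 CPM in the deepest library and to 4.34 CPM in the shallowest, and covers counting error only. Expression is given as CPM, counts scaled by TMM over all 8 libraries and by library size, and levels of different genes were not compared. The shControl-CM libraries were spread, with first principal components of -13.9, -33.4 and -55.6 and second components of 12.4, -11.2 and -38.8 for replicates 1, 2 and 3. Replicate 1 lay nearest to shBrca2-CM replicate 3 (-14.6 and 18.0), and replicate 3 lay farthest from the shBrca2-CM libraries. Between the conditioned media 341 genes were called by edgeR, against 976 without shControl-CM replicate 1, 166 without replicate 2 and 446 without replicate 3, and calls of members that change without one of these libraries are given with and without it. A fit without 1 of the 2 growth medium libraries leaves 1 in that group. Its spread then comes from the conditioned medium group alone, so calls kept or lost there do not test the spread of growth medium. Of 10 fibroblast and stellate cell markers all had counts, and their summed level was 5444 to 6512 CPM with growth medium, against 4202 to 4748 CPM with shControl-CM and 3233 to 3403 CPM with shBrca2-CM. That growth medium had the highest sums rested on Vim, the intermediate filament gene vimentin, at 3396 to 4115 CPM with growth medium, 243 to 463 CPM with shControl-CM and 436 to 749 CPM with shBrca2-CM. Without Vim, a choice made after its values were seen, the sums were 2048 to 2397, 3879 to 4371 and 2624 to 2967 CPM, and shControl-CM stayed above shBrca2-CM. The markers did not move one way: against growth medium 3 were called higher and 4 lower with shControl-CM, and 5 higher and 4 lower with shBrca2-CM. Vim (log2 fold changes -3.38 and -2.68), Col1a1 (-1.44 and -2.04), Col1a2 (-2.48 and -1.86) and Col3a1 (-0.88 and -0.93) fell with both media, where with shControl-CM Col1a1 was lost without growth medium replicate 2 (-0.75) and Col3a1 without growth medium replicate 1 (-1.01) or 2 (-0.71), and Dcn (4.50 and 3.56), Pdpn (3.12 and 2.03) and Thy1 (1.84 and 1.49) rose with both. Between the conditioned media Dcn (-0.93) and Pdpn (-1.07) were lower and Pdgfra (0.85) higher with shBrca2-CM, where Pdpn was lost without shBrca2-CM replicate 2 (-0.99) and Pdgfra without shBrca2-CM replicate 2 (0.69) or 3 (0.89) and shControl-CM replicate 2 (0.81). This count of 3 was 7 without shControl-CM replicate 1, where Vim (0.93), Col1a2 (0.74), Col1a1 (-0.85) and Thy1 (-0.55) joined, 1 without shBrca2-CM replicate 2, and 5 with the replicate block or after thinning. Of 8 epithelial markers 2 had a row, Krt18 and Krt19, and summed to 26.6 to 27.5 CPM with growth medium, 7.69 to 21.1 CPM with shControl-CM and 21.7 to 31.1 CPM with shBrca2-CM. Krt18 rose (2.43 and 2.66) and Krt19 fell (-3.18 and -1.03) against growth medium, and the shControl-CM call of Krt18 was lost without growth medium replicate 1 (2.48). Krt19 was 4.33-fold higher with shBrca2-CM than with shControl-CM (2.12 ± 0.52, edgeR adjusted p = 0.0633), a call lost without shBrca2-CM replicate 2 (1.86) or 3 (2.02) and without shControl-CM replicate 2 (2.33), with DESeq2, after thinning and at an adjusted p-value under 0.05, while under filterByExpr Krt19 was not tested. In the order growth medium, shControl-CM and shBrca2-CM, 3 of 7 leukocyte and macrophage markers, Cd68 among them, summed to 9.46 to 11.5, 23.7 to 36.0 and 13.0 to 26.6 CPM, and 2 of 4 endothelial markers, Kdr and Tek, summed to 3.44 to 3.48, 0 to 1.28 and 0.888 to 1.45 CPM. Of these leukocyte and macrophage markers Cd68 rose 4.01-fold with shControl-CM and 3.22-fold with shBrca2-CM, Csf1r, the receptor of a macrophage growth factor, rose with shControl-CM (log2 fold change 2.09, a call lost after thinning) and Lyz2 was not called in either (-0.56 and -0.23). Csf1r was at 7.05 to 13.6 CPM with shControl-CM and 0 to 3.55 CPM with shBrca2-CM, without overlap, a difference of -2.26 ± 0.67 (edgeR adjusted p = 0.134) that was called without shControl-CM replicate 1 (-2.47, edgeR adjusted p = 0.0425) and in one fit of all 8 libraries. The other markers of these lists were not analysed here, and the part of the marker levels in the results was not tested. Bulk samples cannot tell fewer cells of a type from less RNA per cell.

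The members lie on 5 chromosomes. In the GRCm38.p6 annotation of RefSeq, the assembly otherwise named mm10, Pla2g4a (chr1:149829618-149961290) lies 138.7 kb from Ptgs2 (chr1:150100031-150108234). Chromosome 2 holds Ptges (chr2:30889471-30931020), Ptges2 (chr2:32395890-32402740), Ptgs1 (chr2:36216742-36258593) and Ptgis (chr2:167203194-167252150). Ptger4 lies at chr15:5233399-5244187, Ptgfr at chr3:151798610-151837528 and Hpgd at chr8:56294552-56321046. The gene models Gm52550 and Gm13400 overlap Ptges and Gm52569 overlaps Ptgis, and whether counting used the strand is not given in the sources used here, so reads of overlapping genes cannot be told apart.

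Because the 2 cyclooxygenase genes and Ptges carry most of what follows, the 250 bases before their RefSeq start sites are shown, 5′ to 3′ on the strand of the gene. The windows are chr1:150099781-150100030 on the plus strand for Ptgs2, chr2:36230176-36230425 on the plus strand for Ptgs1 and chr2:30903298-30903547 on the minus strand for Ptges. The Ptgs2 start is the first base of the annotated gene, while the starts of Ptgs1 and Ptges in the promoter table lie 13.7 kb and 27.7 kb inside the annotated genes, so the stretch before the outermost start of these genes was not searched. Capitals mark matches on either strand to the C/EBP motif TTNCNCAA, the only 1 of the 5 motifs searched that these 3 stretches held.
Ptgs2: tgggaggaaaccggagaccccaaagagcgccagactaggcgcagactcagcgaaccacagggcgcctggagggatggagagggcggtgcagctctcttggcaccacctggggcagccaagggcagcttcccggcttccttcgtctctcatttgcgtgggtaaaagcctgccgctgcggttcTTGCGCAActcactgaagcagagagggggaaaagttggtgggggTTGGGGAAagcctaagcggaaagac
Ptgs1: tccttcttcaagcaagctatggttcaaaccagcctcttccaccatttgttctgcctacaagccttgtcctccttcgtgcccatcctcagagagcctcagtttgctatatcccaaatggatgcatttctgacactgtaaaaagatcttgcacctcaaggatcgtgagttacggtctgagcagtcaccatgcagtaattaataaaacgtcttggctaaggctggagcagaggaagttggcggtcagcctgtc
Ptges: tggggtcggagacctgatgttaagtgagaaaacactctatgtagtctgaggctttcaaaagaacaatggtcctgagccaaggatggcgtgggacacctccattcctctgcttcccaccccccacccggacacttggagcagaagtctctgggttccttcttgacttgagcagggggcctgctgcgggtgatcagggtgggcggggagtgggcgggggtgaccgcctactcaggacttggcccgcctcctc

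Motifs were searched on both strands in windows of 300 bases, which add the 50 bases after the start, in the RefSeq promoter table, where 8 of the 9 members had an entry. The Ptgs2 stretch held TTGCGCAA from 69 to 62 bases before the start, which matched on both strands at once, and a second match from 25 to 18 bases before it. The short CRE motif CGTCA was found in Ptgs2 14 to 18 bases past the start. Of 32851 promoters, 13.3% held the C/EBP motif and 20.8% the CRE motif. Ptges2 and Hpgd each held 1 C/EBP match, a second start site of Pla2g4a held the TATA motif TATAA from 198 to 194 bases before it and on the other strand from 199 to 195, and Hpgd held TATAA 5 to 9 bases past its start. The windows of Ptgs1, Ptges, Ptger4 and Ptgfr held no match to these motifs, to the EGR1 motif GCGNGGGCG or to the NF-kB consensus, which 24.9%, 5.55% and 4.51% of all promoters held for TATAA, GCGNGGGCG and the NF-kB consensus. A match is a run of letters and not a measured site of binding, and a window without a match may hold a site that differs from these letters.

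Against growth medium 6 of the 8 members were called with shControl-CM and 7 with shBrca2-CM. With shControl-CM, 5 members rose, Ptges, Ptgs2, Ptgis, Ptges2 and Ptgs1, and 1 fell, Ptger4, while Pla2g4a and Ptgfr did not pass the test. With shBrca2-CM, 6 members rose, these 5 and Pla2g4a, and Ptger4 fell. In the comparison of the conditioned media 1 member passed, Ptges, which was 3.14-fold lower with shBrca2-CM. Calling a gene took a mean normalized count over 5, a log2 fold change beyond 0.5 in either direction and an edgeR p-value that stayed under 0.1 after adjustment over all genes tested. Of all genes tested, 18.2% were called higher and 18.9% lower with shControl-CM against growth medium, 37.1% in all. With shBrca2-CM these shares were 18.6% and 19.2%, 37.8% in all. The share of genes called between the conditioned media was 3.09%. The median log2 fold change of the 8 members was 1.27 with shControl-CM and 0.95 with shBrca2-CM against growth medium, where the medians over all genes tested were -0.10 and -0.05. The member median was -0.39 between the conditioned media, where that of all genes was 0.03. Both comparisons with growth medium share the same 2 control libraries, and the p-values measure the spread between domes. The plot of levels by library shows all 8 members.

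**Figure D1:**
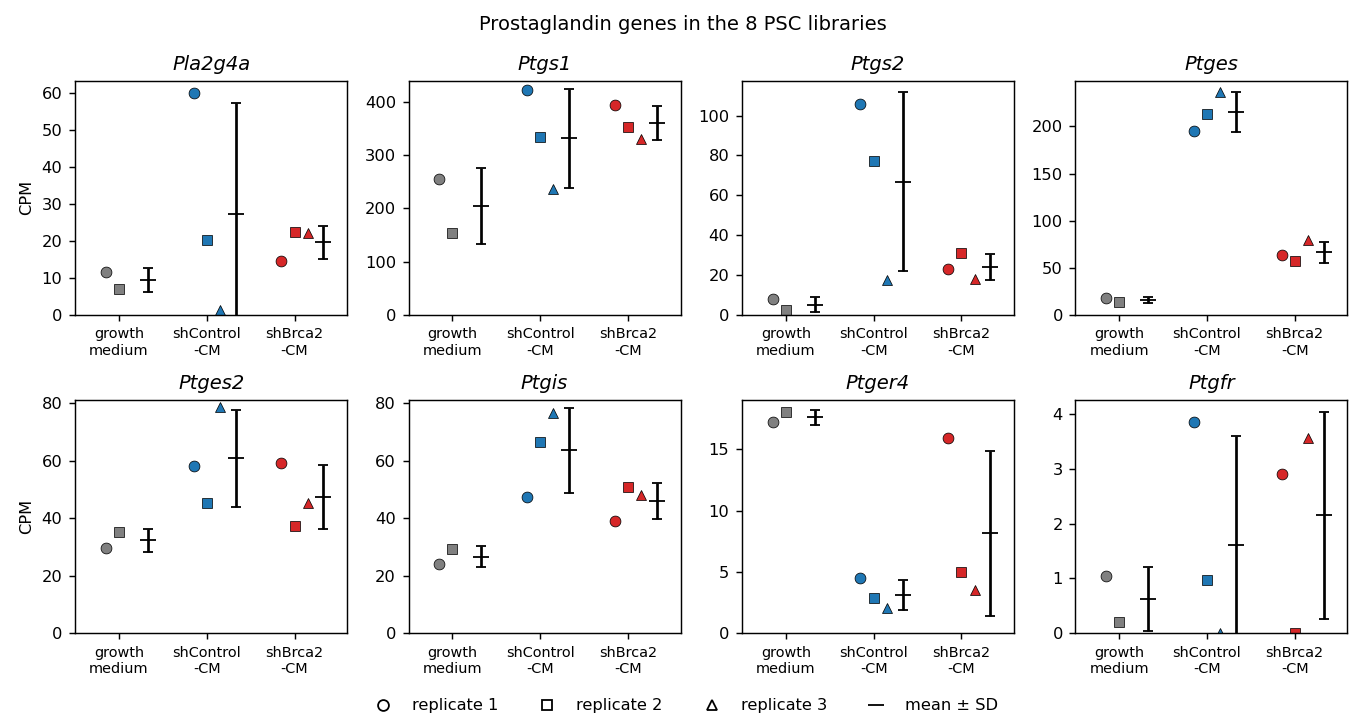
CPM (vertical axis, linear and starting at 0) of the 8 members with a row, in each library of growth medium (2), shControl-CM (3) and shBrca2-CM (3). Points are libraries, with the replicate number as the shape, and the bar at the right of each group is the mean ± SD, cut at 0 where the SD is larger than the mean. Ptges separates the 3 groups without overlap, and Ptgs2 and Pla2g4a are lowest in replicate 3 among the shControl-CM libraries.

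Pla2g4a encodes the cytosolic phospholipase A2 that frees arachidonic acid. It was at 11.6 and 7.09 CPM with growth medium. With shBrca2-CM it was at 14.5, 22.4 and 22.2 CPM, above both growth medium libraries in each dome. With shControl-CM it was at 60.2, 20.3 and 1.36 CPM, so that the highest and the lowest value of all 8 libraries both belonged to this group. The value of replicate 3 rested on 2 counts. The rise with shBrca2-CM was 2.11-fold (log2 fold change 1.08 ± 0.31 SE, edgeR adjusted p = 0.0037). This call was lost in one fit of all 8 libraries (edgeR adjusted p = 0.294). With shControl-CM a rise passed in one fit of all 8 libraries and with the replicate block, which leaves out replicate 3. In the main fit its log2 fold change was 1.55 ± 0.81 and did not pass (edgeR adjusted p = 0.169). Without shControl-CM replicate 3 it was 2.15 (edgeR adjusted p = 1.38e-05), and without replicate 1 it was 0.01. The difference between the conditioned media of -0.46 ± 0.74 did not pass (edgeR adjusted p = 0.855).

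Ptgs1 and Ptgs2 encode the cyclooxygenases that make prostaglandin H2. Ptgs1 was at 254 and 154 CPM with growth medium, at 423, 334 and 236 CPM with shControl-CM and at 395, 353 and 331 CPM with shBrca2-CM. All shBrca2-CM libraries were above both growth medium libraries, while shControl-CM replicate 3 lay between them. The rise was 1.76-fold with shBrca2-CM (log2 fold change 0.81 ± 0.16, edgeR adjusted p = 2.38e-05) and 1.62-fold with shControl-CM (0.69 ± 0.27, edgeR adjusted p = 0.075). The second of these calls was lost without shControl-CM replicate 1 (0.48), without shControl-CM replicate 2 (0.68) and without growth medium replicate 2 (0.37). The conditioned media differed in Ptgs1 by 0.14 ± 0.19 (edgeR adjusted p = 0.818).

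Ptgs2 was at 7.99 and 2.36 CPM with growth medium, from 46 and 11 counts. With shBrca2-CM it was at 23.1, 31.1 and 17.8 CPM and with shControl-CM at 106, 77.3 and 17.7 CPM. Every conditioned medium library was above both growth medium libraries, and shControl-CM replicate 3 was at the level of the shBrca2-CM libraries. Ptgs2 rose 12.4-fold with shControl-CM (log2 fold change 3.63 ± 0.69, edgeR adjusted p = 0.00352) and 4.35-fold with shBrca2-CM (2.12 ± 0.35, edgeR adjusted p = 1.31e-06). With each conditioned medium library left out in turn both calls were kept. Without growth medium replicate 2 or 1, which leaves 1 library in that group, the log2 fold changes with shControl-CM were 3.05 and 4.80. For shBrca2-CM the same 2 libraries gave 1.55 and 3.27. Without shControl-CM replicate 1 the rise with shControl-CM was 3.06.

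Compared with shControl-CM, Ptgs2 was 2.78-fold lower with shBrca2-CM, a difference that did not pass the test (log2 fold change -1.48 ± 0.52, unadjusted p = 0.0146, edgeR adjusted p = 0.214). The outcome rested on 1 library. Without shControl-CM replicate 3 the log2 fold change was -1.96 ± 0.24 and passed (edgeR adjusted p = 1.79e-05), and without shControl-CM replicate 1 it was -0.94. The plot with each library left out shows Ptgs2 beside Ptges, whose call was kept throughout.

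**Figure D2:**
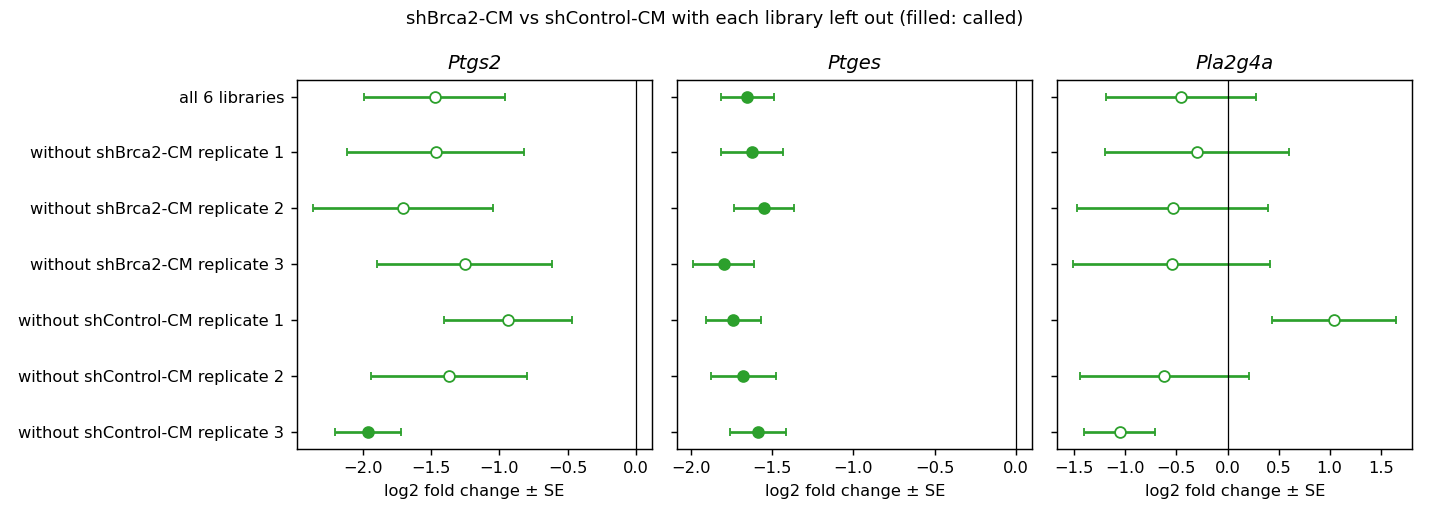
Log2 fold change ± SE (horizontal axis) of Ptgs2, Ptges and Pla2g4a with shBrca2-CM against shControl-CM, from all 6 libraries (top) and with each library left out in turn (rows below). Filled points passed the call. Ptges passed in all 7 fits, at -1.80 to -1.55, Ptgs2 passed only without shControl-CM replicate 3, and Pla2g4a passed in none and was above 0 without shControl-CM replicate 1.

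The Ptgs2 share of the 2 cyclooxygenase genes' counts does not depend on scaling between libraries. It was 3.05% (95% exact binomial interval 2.24 to 4.05) and 1.51% (0.758 to 2.69) with growth medium. With shBrca2-CM it was 5.54% (3.20 to 8.84), 8.09% (5.30 to 11.7) and 5.09% (3.14 to 7.75). With shControl-CM it was 20.0% (17.3 to 22.9), 18.8% (15.2 to 22.8) and 6.95% (4.59 to 10.0). The intervals cover counting error only. The groups with conditioned medium overlapped through shControl-CM replicate 3, and each conditioned medium library was above both growth medium libraries. The mean share was 15.2% ± 7.21 (SD, n = 3) with shControl-CM, 6.24% ± 1.62 (n = 3) with shBrca2-CM and 2.28% ± 1.09 (n = 2) with growth medium. Two-sided exact permutation tests gave p = 0.2 between the conditioned media, p = 0.2 for shControl-CM and p = 0.1 for shBrca2-CM against growth medium, where 0.1 is the smallest p these designs allow.

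Ptges encodes the inducible microsomal synthase that makes prostaglandin E2. It was at 17.7 and 13.3 CPM with growth medium, at 63.7, 57.2 and 79.0 CPM with shBrca2-CM, and at 195, 214 and 237 CPM with shControl-CM. No 2 of the 3 groups overlapped, and the lowest count behind a value was 44. Ptges rose 13.7-fold with shControl-CM (log2 fold change 3.78 ± 0.21, edgeR adjusted p = 2.15e-06) and 4.31-fold with shBrca2-CM (2.11 ± 0.21, edgeR adjusted p = 2.57e-12). It was 3.14-fold lower with shBrca2-CM than with shControl-CM (-1.65 ± 0.16, edgeR adjusted p = 0.00024). Its SE was the smallest of the 8 members in both comparisons that involve shControl-CM. All 3 calls were kept with each library left out, with the difference between the conditioned media at -1.80 to -1.55. In shControl-CM replicate 3, where Ptgs2 was lowest for its group, Ptges was at its highest.

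Ptges2 encodes another microsomal prostaglandin E synthase. It was at 29.5 and 35.3 CPM with growth medium, 58.3, 45.4 and 78.8 CPM with shControl-CM and 59.3, 37.3 and 45.3 CPM with shBrca2-CM. All conditioned medium libraries were above the growth medium libraries, and the conditioned media overlapped. The rise was 1.88-fold with shControl-CM (log2 fold change 0.91 ± 0.25, edgeR adjusted p = 0.0183) and 1.45-fold with shBrca2-CM (0.54 ± 0.21, edgeR adjusted p = 0.0357), and the difference between the conditioned media was -0.36 ± 0.24 (edgeR adjusted p = 0.581). Both calls against growth medium were lost after thinning to the smallest library (0.62 and 0.43). That of shBrca2-CM was also lost without shBrca2-CM replicate 1 (0.37), in one fit of all 8 libraries and by DESeq2. Neither was kept without growth medium replicate 1 (0.81 and 0.41), where 1 library is left in that group and the spread comes from the conditioned medium alone.

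The Ptges share of Ptges plus Ptges2 counts was 37.5% (31.7 to 43.5) and 27.4% (21.7 to 33.7) with growth medium. It was 51.8% (40.7 to 62.7), 60.5% (48.6 to 71.6) and 63.6% (55.0 to 71.5) with shBrca2-CM. It was 77.0% (72.6 to 81.1), 82.5% (77.4 to 86.8) and 75.1% (70.9 to 78.9) with shControl-CM. The 3 groups did not overlap, as the plot of shares within libraries shows. Mean shares were 32.5% ± 7.12 (SD, n = 2), 58.6% ± 6.13 (n = 3) and 78.2% ± 3.84 (n = 3), and each of the 3 two-sided exact permutation tests gave p = 0.1, the smallest these designs allow.

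**Figure D3:**
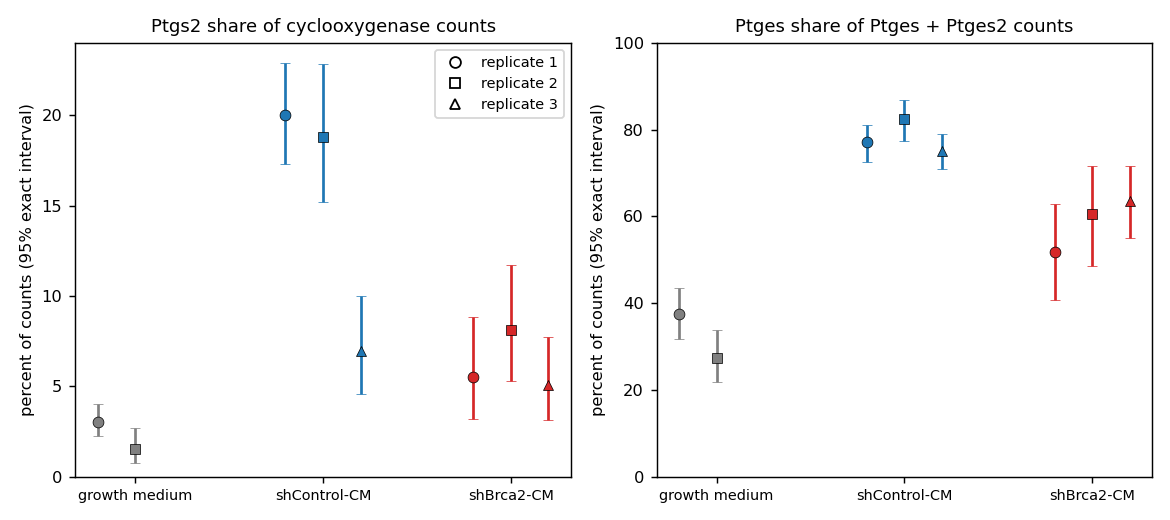
Ptgs2 counts as a percent of Ptgs1 plus Ptgs2 counts (left) and Ptges counts as a percent of Ptges plus Ptges2 counts (right) in each library, with 95% exact binomial intervals as bars. The Ptges share separates the 3 groups, at 27.4% to 37.5%, 75.1% to 82.5% and 51.8% to 63.6%, while the Ptgs2 share of shControl-CM replicate 3 lies among those of shBrca2-CM.

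Ptgis encodes prostacyclin synthase. It was at 24.0 and 29.2 CPM with growth medium, 47.4, 66.7 and 76.7 CPM with shControl-CM and 39.1, 51.0 and 47.9 CPM with shBrca2-CM. Again all conditioned medium libraries were above the growth medium libraries. The rise was 2.37-fold with shControl-CM (log2 fold change 1.25 ± 0.25, edgeR adjusted p = 0.00414) and 1.75-fold with shBrca2-CM (0.81 ± 0.21, edgeR adjusted p = 0.00155). The second of these calls was lost after thinning (0.38, edgeR adjusted p = 0.31). Between the conditioned media the difference was -0.43 ± 0.22 and did not pass (edgeR adjusted p = 0.435), except without shControl-CM replicate 1 (-0.63, edgeR adjusted p = 0.0787).

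Ptger4 encodes EP4, the prostaglandin E2 receptor that raises cAMP. It was at 17.2 and 18.1 CPM with growth medium, 4.48, 2.90 and 2.04 CPM with shControl-CM and 15.9, 4.98 and 3.55 CPM with shBrca2-CM. All conditioned medium libraries were below the growth medium libraries, with shBrca2-CM replicate 1 close to them, and their values rested on 3 to 11 counts a library. The level was 5.49-fold lower with shControl-CM (log2 fold change -2.46 ± 0.38, edgeR adjusted p = 0.00123) and 2.39-fold lower with shBrca2-CM (-1.26 ± 0.37, edgeR adjusted p = 0.00466). The second of these calls was lost without shBrca2-CM replicate 3 (-0.80, edgeR adjusted p = 0.135), and without shBrca2-CM replicate 1 the fall was larger (-2.08). It was also lost with the replicate block, which leaves out replicate 3 too. The conditioned media differed by 1.25 ± 0.66, which did not pass (edgeR adjusted p = 0.455), and by 0.41 without shBrca2-CM replicate 1.

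Ptgfr encodes the prostaglandin F receptor. It had 6 and 1 counts with growth medium, 6, 1 and 0 with shControl-CM and 2, 0 and 4 with shBrca2-CM. Its mean normalized count was under 5 in each comparison, so it could not be called, and a difference was not detectable at this depth. The plot of fold changes sets the 3 comparisons of each member side by side.

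**Figure D4:**
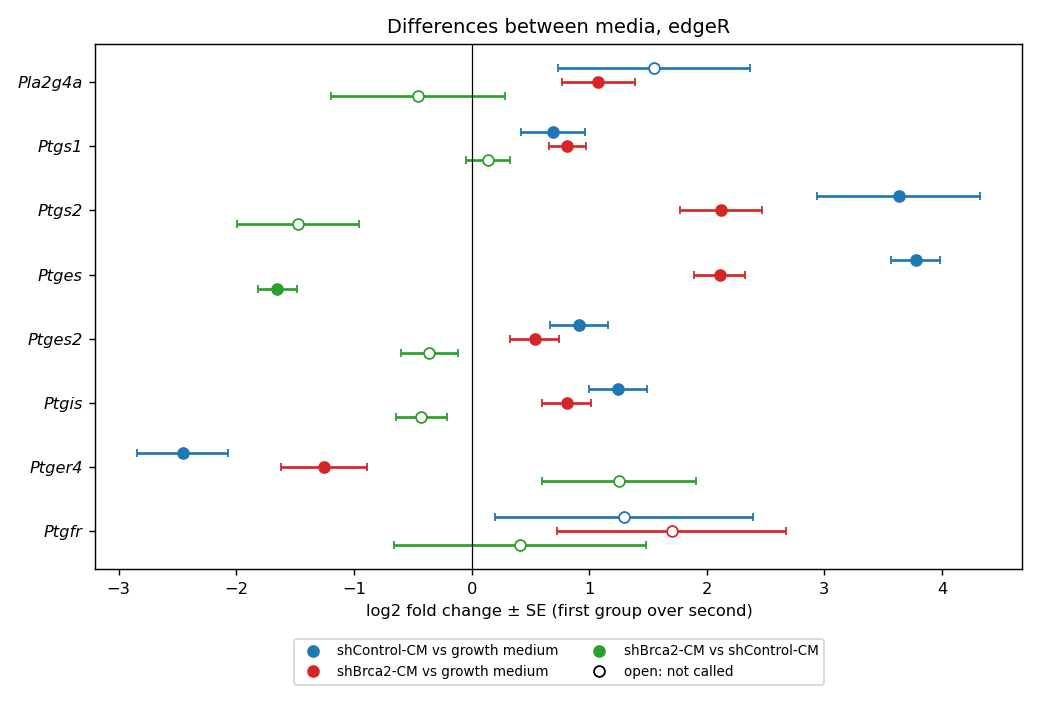
Log2 fold change ± SE (horizontal axis) of the 8 members in the 3 comparisons, from edgeR. Filled points passed the call and open points did not. The synthesis genes lie right of 0 and Ptger4 left of 0 against growth medium, and Ptges is the only filled point between the conditioned media, at -1.65.

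The wider pathway was taken as 42 genes in 4 lists (arachidonate release, synthases, receptors, and transport and breakdown), of which 33 were not members and 19 of these had a row. Of these 19, 4 rose and 5 fell with shControl-CM, and 6 rose and 5 fell with shBrca2-CM, against growth medium. The shares of all genes tested that were called, higher or lower, were 37.1% with shControl-CM and 37.8% with shBrca2-CM. With the members included, 9 of 27 rose and 6 fell with shControl-CM and 12 of 27 rose and 6 fell with shBrca2-CM. These 15 and 18 calls were 7 to 17 and 14 to 17 with each library left out, with 7 without growth medium replicate 1 or 2 for shControl-CM, and 8 and 6 at an absolute log2 fold change over 1, and thinning left 8 and 12. The median log2 fold change of the non-members was -0.04 with shControl-CM and -0.23 with shBrca2-CM, beside -0.10 and -0.05 over all genes tested. Leaving out each library in turn, none of the 9 non-member calls with shControl-CM was kept in every fit, and 6 of the 11 with shBrca2-CM were. Fits without a growth medium library leave 1 there and take the spread from the conditioned medium alone. The shControl-CM libraries were the more spread, so these 2 counts do not compare the media.

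In the comparison of the conditioned media 1 of 18 non-members tested passed, beside 3.09% of all genes tested. Slco2a1, the transporter that takes prostaglandins up into cells, was at 124, 119 and 136 CPM with shBrca2-CM and at 59.6, 71.5 and 48.9 CPM with shControl-CM. It was 2.17-fold higher with shBrca2-CM (log2 fold change 1.11 ± 0.18, edgeR adjusted p = 0.00484), and the call was kept with each library left out. With growth medium it was at 70.4 and 83.2 CPM, a difference of 0.73 ± 0.16 from shBrca2-CM (edgeR adjusted p = 0.000165) and of -0.37 ± 0.20 from shControl-CM (edgeR adjusted p = 0.186). Without shControl-CM replicate 3, Abcc4, a transporter that exports prostaglandins and was named after its values were seen, also passed. It was at 7.47 and 7.31 CPM with growth medium, 28.2, 15.5 and 4.75 CPM with shControl-CM and 7.23, 6.22 and 7.10 CPM with shBrca2-CM, so replicate 3 was the only shControl-CM library under growth medium. Between the conditioned media its difference was -1.21 ± 0.58 (edgeR adjusted p = 0.401), and -1.69 (edgeR adjusted p = 0.0165) without that library. Against growth medium shControl-CM differed by 1.13 (edgeR adjusted p = 0.126), and by 1.61 (edgeR adjusted p = 0.000502) without it.

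Of the receptor list, which holds Ptgfrn beside the receptor genes themselves, 6 genes had a row. With each conditioned medium 4 fell and 1 rose, and Ptgfr could not be called. Called lower were 18.9% of all genes tested with shControl-CM and 19.2% with shBrca2-CM. Besides Ptger4, the genes that fell were Ptger1, the EP1 receptor gene (log2 fold change -1.19 with shControl-CM and -1.36 with shBrca2-CM), Tbxa2r, the thromboxane receptor gene (-1.50 and -0.67), and Ptgfrn, which encodes a membrane protein that binds the prostaglandin F receptor (-0.83 and -0.77). The gene that rose was Ptgir, the prostacyclin receptor (1.20 and 0.68). Of the shControl-CM calls, Ptger1 was lost without shControl-CM replicate 1 (-0.88) and without growth medium replicate 1 (-1.26) or 2 (-1.08), Tbxa2r without growth medium replicate 1 (-1.41), Ptgfrn without growth medium replicate 1 (-0.80) or 2 (-0.83) and Ptgir without growth medium replicate 2 (0.93). Of the shBrca2-CM calls, Tbxa2r was lost without shBrca2-CM replicate 2 (-0.61) or 3 (-0.54) and without growth medium replicate 1 (-0.61), and Ptgir without shBrca2-CM replicate 1 (0.61) or 3 (0.54) and without growth medium replicate 2 (0.43).

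Among the synthase genes 11 had a row. Ptges3, known as a cytosolic prostaglandin E synthase and HSP90 co-chaperone, moved against its namesakes, at -0.77 with shControl-CM and -0.71 with shBrca2-CM. Tbxas1, thromboxane synthase, had 9, 3 and 7 counts with shControl-CM, 0, 2 and 0 with shBrca2-CM and 6 and 3 with growth medium, and rose with shControl-CM (2.36, edgeR adjusted p = 0.0136). Akr1c18, an aldo-keto reductase, had 7, 4 and 3 counts with shBrca2-CM and 0 and 1 with growth medium, so that it was at least 9.18-fold higher with shBrca2-CM by the floor of 3 counts in a library. Without shBrca2-CM replicate 1, a choice made after the values were seen, this bound was 5.92-fold and the gene did not pass the low-count filter. With shControl-CM Akr1c18 had 5, 2 and 2 counts and was at least 3.36-fold above growth medium by the same floor. It could not be called there, at a mean normalized count of 3.08. The conditioned media overlapped in Akr1c18, and their difference did not pass (1.31 ± 0.68, edgeR adjusted p = 0.443). The calls with shControl-CM were lost for Ptges3 without shControl-CM replicate 2 (-0.67) and without growth medium replicate 1 (-0.67) or 2 (-0.86), and for Tbxas1 without growth medium replicate 2 (2.08).

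Of the phospholipase genes, Pla2g12a passed with shControl-CM (0.62) and Pla2g6 with shBrca2-CM (0.60). Of the breakdown genes, Zadh2, which reduces a prostaglandin metabolite, rose with both media (0.78 and 0.68), Cbr3, a carbonyl reductase, fell with both (-0.73 and -0.81) and Ptgr1, another reductase, rose with shBrca2-CM (0.68). Without growth medium replicate 1 the shControl-CM values were 0.51 for Pla2g12a, 0.96 for Zadh2 and -0.63 for Cbr3, none of which passed. Pla2g12a was also lost without shControl-CM replicate 2 (0.55), Zadh2 without shControl-CM replicate 2 (0.70) and growth medium replicate 2 (0.63), and Cbr3 without growth medium replicate 2 (-0.79). With shBrca2-CM, Pla2g6 was lost without shBrca2-CM replicate 3 (0.49) and Ptgr1 without shBrca2-CM replicate 2 (0.44) and without growth medium replicate 1 (0.52).

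**Figure D5:**
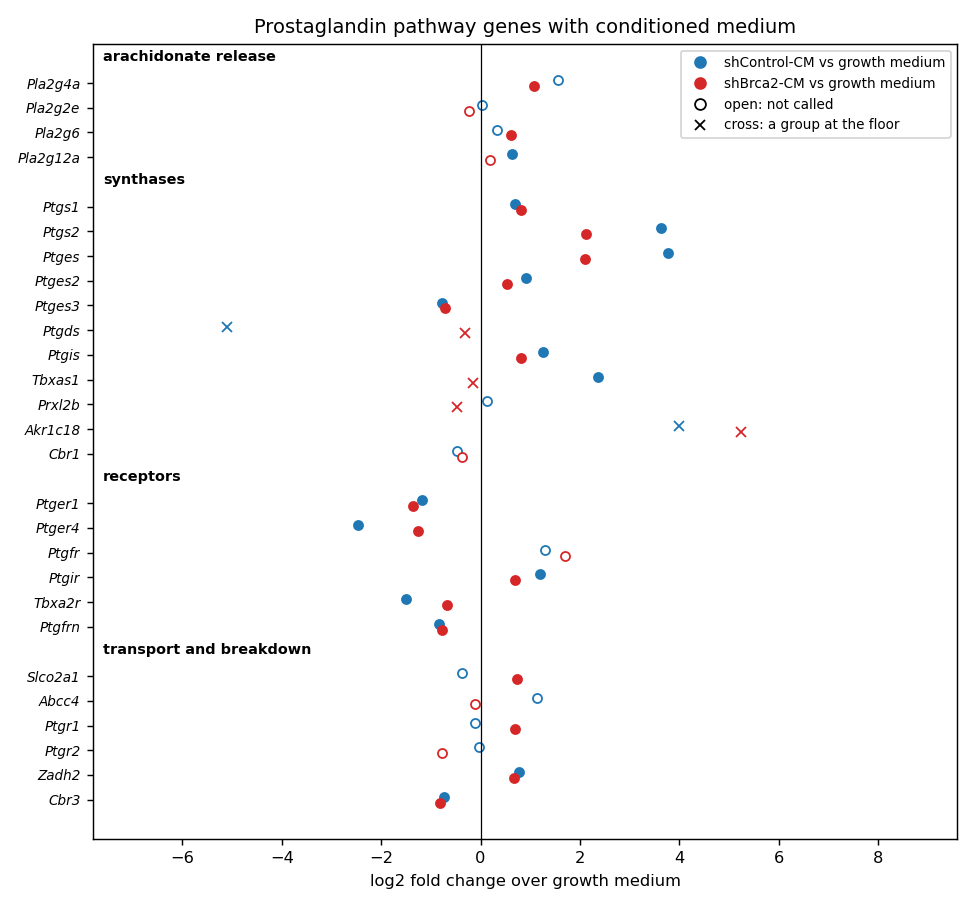
Log2 fold change over growth medium (horizontal axis) of the 27 genes of the 4 pathway lists with a row, with shControl-CM and shBrca2-CM. Filled circles passed the call, open circles did not, and crosses are fitted values of genes with a group at 3 or fewer counts in every library, which are no bound. Ptgs2 and Ptges lie farthest right among the circles of both media, and 4 of 6 genes of the receptor list, Ptgfrn among them, lie left of 0 as filled circles.

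Prostaglandin E2 acting on EP4 is known to raise cAMP, so a list of 14 cAMP response genes was read beside the members, of which 11 had a row. Prostaglandins and cAMP were not measured, and a link of these genes to prostaglandin E2 or EP4 was not tested. Against growth medium 6 rose and 1 fell with shControl-CM, and 4 rose and 1 fell with shBrca2-CM. Of all genes tested, 37.1% and 37.8% were called in these comparisons, and 3.09% between the conditioned media. The nuclear receptor gene Nr4a1 was at 79.9 and 69.2 CPM with growth medium, 240, 226 and 280 CPM with shControl-CM and 127, 122 and 158 CPM with shBrca2-CM, with no overlap between the 3 groups. Its log2 fold changes were 1.73 with shControl-CM and 0.88 with shBrca2-CM. Nr4a2 (2.42 and 1.19), Nr4a3 (2.04 and 1.08) and Areg, the growth factor amphiregulin (2.21 and 2.06), rose with both media, and the transcription factor gene Fosb (1.97) and the clock gene Per1 (0.63) passed with shControl-CM. The phosphodiesterase gene Pde4a was lower with shControl-CM (-0.53) and the transcription factor gene Creb3l1 with shBrca2-CM (-0.66). Between the conditioned media 2 of the 11 passed, Nr4a1 (-0.84 ± 0.15, edgeR adjusted p = 0.0109) and Creb3l1 (-0.92 ± 0.16, edgeR adjusted p = 0.00867), both lower with shBrca2-CM, and Nr4a1 was lost without shBrca2-CM replicate 2 (-0.77, edgeR adjusted p = 0.109). Nr4a2 (-1.21 ± 0.33, edgeR adjusted p = 0.101) lay just outside the threshold, and was called without shControl-CM replicate 3 (-1.40, edgeR adjusted p = 0.0113) and in edgeR with DESeq2 size factors, no low-count filter or filterByExpr. Per1 was called without shControl-CM replicate 1 (-0.73, edgeR adjusted p = 0.0953).

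Against growth medium, 3 of the 7 calls of this list with shControl-CM (Nr4a1, Nr4a2 and Nr4a3) and 2 of the 5 with shBrca2-CM (Nr4a1 and Areg) were kept with each library left out. With shControl-CM, Areg was lost without growth medium replicate 1 (2.06), Fosb without growth medium replicate 1 (2.01) or 2 (1.95), Per1 without shControl-CM replicate 2 (0.58) and growth medium replicate 1 (0.67) or 2 (0.61), and Pde4a without shControl-CM replicate 1 (-0.36) or 2 (-0.60) and growth medium replicate 1 (-0.57) or 2 (-0.47). With shBrca2-CM, Nr4a2 was lost without shBrca2-CM replicate 3 (0.88) and growth medium replicate 2 (0.80), Nr4a3 without shBrca2-CM replicate 1 (0.65) or 3 (0.90) and growth medium replicate 2 (0.66), and Creb3l1 without growth medium replicate 2 (-0.42).

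The mRNA of Ptgs2 is known to be short-lived and bound by proteins that speed or slow its decay, and all 10 genes of a list of such factors had a row. With shControl-CM 2 rose and 2 fell, and with shBrca2-CM 2 rose and 3 fell, beside 37.1% and 37.8% of all genes tested that were called. Between the conditioned media none of the 9 tested passed with edgeR or DESeq2, and 1, Hnrnpd, had an unadjusted p-value under 0.05. Zfp36l1, a decay factor, was at 112 and 92.2 CPM with growth medium, 74.3, 23.2 and 7.47 CPM with shControl-CM and 56.4, 79.6 and 55.9 CPM with shBrca2-CM. Its log2 fold changes were -1.51 and -0.68, and within the shControl-CM group it was lowest in replicate 3, as was Ptgs2. The shControl-CM call of Zfp36l1 was lost without shControl-CM replicate 2 (-1.31) and without growth medium replicate 1 (-1.36) or 2 (-1.65), and between the conditioned media Zfp36l1 passed only without shControl-CM replicate 1 (2.15, edgeR adjusted p = 0.00213). Elavl1, a stabilising factor, rose with both media (1.44 and 1.71), Khsrp, a decay factor, with shControl-CM (0.78) and Tia1 with shBrca2-CM (1.06), while Dhx9 (-0.66) and the decay factor Zfp36 (-0.59) fell with shBrca2-CM and Zfp36l2, whose shControl-CM libraries were all at the floor, was at least 2.01-fold lower with shControl-CM. With shControl-CM, Dhx9 was called without shControl-CM replicate 3 (-0.51, edgeR adjusted p = 0.0214), Khsrp kept its call with each library left out, Elavl1 lost it without shControl-CM replicate 1 (0.97) and growth medium replicate 1 (0.98) or 2 (2.01), and Zfp36l2 without growth medium replicate 1 or 2. With shBrca2-CM, Dhx9 and Zfp36l1 kept theirs, Elavl1 (1.33) and Tia1 (0.88) lost it without shBrca2-CM replicate 3, Zfp36 without shBrca2-CM replicate 3 (-0.30) and growth medium replicate 2 (-0.53), and Tia1 also without growth medium replicate 2 (0.69). Not called with all libraries but called with 1 left out were Zfp36 with shControl-CM (-0.89 without shControl-CM replicate 1) and, with shBrca2-CM, Khsrp (0.67 without shBrca2-CM replicate 1), Zfp36l2 without shBrca2-CM replicate 2 and Hnrnpd without shBrca2-CM replicate 1 or 2.

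Arachidonic acid is also the substrate of lipoxygenases, and 7 of 16 genes of that branch had a row. Mgst2, a glutathione transferase that can make leukotriene C4, was at 1.39 and 1.07 CPM with growth medium, 20.5, 25.1 and 19.0 CPM with shControl-CM and 21.7, 16.2 and 22.2 CPM with shBrca2-CM. It rose with both (log2 fold changes 4.05 ± 0.39 and 3.97 ± 0.43), and its relative Mgst3 fell with both (-2.35 ± 0.37 and -2.08 ± 0.38), each kept with each library left out. The leukotriene A4 hydrolase gene Lta4h (-0.65) and the leukotriene B4 receptor gene Ltb4r1 (1.42) passed with shControl-CM, and both were lost without shControl-CM replicate 2 (-0.71 and 1.12) and without growth medium replicate 1 (-0.50 and 1.37) or 2 (-0.78 and 1.49), and Ltb4r1 also without shControl-CM replicate 1 (1.29). With shBrca2-CM, Lta4h was called without shBrca2-CM replicate 3 (-0.61). Between the conditioned media none of the 5 genes tested was called by edgeR or by DESeq2, and none had an unadjusted p-value under 0.05.

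The 5 genes with a pattern closest to that of Ptgs2, by Pearson correlation of log2 CPM over the 8 libraries among 9103 genes, were Dnase1l1 (r = 0.977, Spearman rho = 0.976), Ccbe1 (0.973, 0.976), Cd14 (0.949, 0.833), Lrig1 (0.946, 0.976) and Cxcl1 (0.942, 0.833). These values describe 8 libraries in 3 groups of unequal depth and carry no test. Cd14 encodes a receptor for bacterial lipopolysaccharide and Cxcl1 a neutrophil chemokine. As the 5 genes were chosen for this pattern, their differences are a description. Between shBrca2-CM and shControl-CM the log2 fold changes ranged from -2.21 (Cxcl1) to -0.08 (Lrig1).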

How the data were processed

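The members and the gene lists were chosen with earlier results of these data known. Per the submitters' processing notes, bcl2fastq, cutadapt, STAR 2.4.2a, HTSeq and DESeq2 were used, with the mm10 genome. The 3′ RNA libraries were made by a variation of MARS-seq, and the handling of molecular identifiers and of strand is not given in the sources used here. The authors deposited counts of reads per gene for 12160 genes without normalization. Of its per-sample columns, 1, by its header another library in growth medium, matched no sample and was not used. Samples were grouped by treatment.

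The 3 pairs of groups were compared in separate fits with edgeR 4.0.16 in R 4.3.3 (TMM scaling, quasi-likelihood test). Genes needed 10 counts in total over the libraries of a fit, and Benjamini-Hochberg adjustment ran over every gene tested. The thresholds of a call were 0.1 for the adjusted p-value, 0.5 for the size of the log2 fold change and 5 for the mean normalized count. SE is the absolute log2 fold change divided by the root of the F statistic. The fits were tested on simulated data. Shares of counts have Clopper-Pearson intervals. A group with 3 or fewer counts of a gene in every library was taken as at the floor, and a fold against it used the largest per-library floor of that group in place of its mean. All members are reported. Of each list, genes called in at least 1 comparison were named, up to 8 by smallest adjusted p-value, and for likeness to Ptgs2 the 5 genes with the highest correlation among those with at least 100 counts. Genes of the lists without a row were not analysed here, nor were the other experiments of the study. Sequences and coordinates are RefSeq's for GRCm38.p6. Alternatives were DESeq2 1.42.0, other scalings, filters and thresholds, one fit of all groups, a replicate block, thinned libraries and each library left out.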

Additional observations from a re-analysis of the deposited data

How the results depend on the processing

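The call of Ptges was kept in every alternative run in all 3 comparisons, at edgeR or DESeq2 adjusted p-values of at most 0.00594 between the conditioned media and at most 0.000867 and 6.89e-06 for shControl-CM and shBrca2-CM against growth medium. With each library left out in turn, 1 to 2 members were called between the conditioned media, with 2 without shControl-CM replicate 1 (Ptgis joins) and 2 without shControl-CM replicate 3 (Ptgs2 joins), 5 to 7 members with shControl-CM and 6 to 7 with shBrca2-CM against growth medium. At an absolute log2 fold change over 1, 4 members were called with shBrca2-CM against growth medium in place of 7. For shControl-CM the lowest count over all alternatives was 4 in place of 6, and thinning lost the calls of Ptges2 and Ptgs1. Differences between the conditioned media that turned direction, none of them called, were Pla2g4a (0.11 with the replicate block, and -1.06 to 1.04 with each library left out, the latter without shControl-CM replicate 1), Ptgs1 (-0.071 to 0.34 with each library left out, the former without shControl-CM replicate 3) and Ptgfr (-0.20 to 0.94 with each library left out, the former without shControl-CM replicate 3). Same-numbered libraries did not deviate together throughout (correlations of -0.04, 0.01 and 0.13 between the conditioned media), so the numbers were not taken as pairs. With the replicate block 1, 7 and 6 members were called between the conditioned media and with shControl-CM and shBrca2-CM against growth medium. As growth medium had replicates 1 and 2 only, the block fits against it also left out replicate 3 of the conditioned medium. There Pla2g4a joined with shControl-CM (2.06, edgeR adjusted p = 1.04e-10) and Ptger4 was lost with shBrca2-CM (-0.80, edgeR adjusted p = 0.123). Leaving out replicate 3 without a block gave 2.15 (edgeR adjusted p = 1.38e-05) and -0.80 (edgeR adjusted p = 0.135). These changes can therefore not be credited to the block. In one fit of all 8 libraries Pla2g4a was called with shControl-CM (1.55, edgeR adjusted p = 0.0782) and not with shBrca2-CM (1.07, edgeR adjusted p = 0.294), and Ptges2 was lost with shBrca2-CM there (0.54, edgeR adjusted p = 0.13) and by DESeq2 (0.54, adjusted p = 0.127). Ptgs1 with shControl-CM was lost with library totals in place of TMM (0.58) and after thinning (0.56). Over all genes, 341 were called between the conditioned media, and 128 to 976 with each library left out, 206 at an adjusted p-value under 0.05 and 180 at an absolute log2 fold change over 1. Against growth medium, 4488 were called with shControl-CM (1901 to 5157 with each library left out, 2903 after thinning, 2691 at an absolute log2 fold change over 1) and 4555 with shBrca2-CM (2301 at an absolute log2 fold change over 1). The cause of these changes was not tested. With each library left out, 3 to 7 of the cAMP response genes, 1 to 5 of the Ptgs2 mRNA stability factors and 2 to 4 of the lipoxygenase genes were called with shControl-CM in place of 7, 4 and 4, and 3 to 6, 2 to 7 and 2 to 3 with shBrca2-CM in place of 5, 5 and 2. Ptgfr was not called in any comparison at this depth. Groups of 2 and 3 libraries are too small for a test of single outlying libraries.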
